A study of Saccharomyces cerevisiae with 8 samples.

Results

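The genes described here are 38 genes of Saccharomyces cerevisiae that make, use or recharge glutathione and thioredoxin, remove superoxide and peroxides, supply NADPH, or control these functions. They were chosen by gene symbol, under a rule that uses the function of each gene. The rule itself uses no measured value, but these genes were chosen with earlier results of these data known. Of the 38 genes, 37 had a probe that the array annotation names, among 6226 genes and unnamed probes that were tested. GRX2 is listed on the array under its older symbol, and PRX1, a mitochondrial peroxiredoxin, was not analysed here.

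Glutathione is a tripeptide whose cysteine thiol keeps the cytosol reduced, and glutathione reductase returns its oxidised disulphide form to the thiol with electrons from NADPH. Thioredoxins, glutaredoxins and peroxiredoxins pass those electrons on to protein disulphides and to peroxides, and the oxidative branch of the pentose phosphate pathway is a main source of the NADPH. In yeast the transcription factor Yap1 is known for inducing many of these genes under oxidative stress, some of them together with Skn7.

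Levels were measured in BY4741 yeast, a MATa laboratory strain with deletions in HIS3, LEU2, MET15 and URA3. WTD20 and WTD0 yeast expressed AhPDF1.1b, a cysteine-rich plant defensin, under the triose phosphate isomerase promoter on the plasmid pYX212, and WT20 and WT0 yeast did not. WTD20 and WT20 yeast grew with 20 mmol/L ZnSO4, and WTD0 and WT0 yeast grew without added zinc. All 4 groups also carried the empty pFL38H vector with its HIS3 marker, grew as colonies on solid minimal medium with methionine and leucine, and were harvested at 1 common colony diameter. The labels do not say whether the yeast without the defensin carried an empty pYX212, nor how long each group took to reach its diameter. Each group had 2 biological replicates, and each sample was hybridised to its own one-colour Agilent array.

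Replicate arrays were close to each other over all probes, with Pearson correlations between 0.996 and 0.998. The deleted genes LEU2 and MET17 (also called MET15) gave log2 signals between 5.54 and 5.79, near the lowest signals of the arrays, and the a-cell genes STE2, MFA1 and BAR1 had signals between 7.14 and 11.10. With zinc these 3 genes were lower, by log2 changes of -1.76, -2.499 and -1.73 in AhPDF1.1b yeast and -1.09, -2.52 and -1.76 in WT yeast. On control medium STE2 was higher with AhPDF1.1b by 1.66 (adjusted p = 3.4e-05 in limma). MFA1 and BAR1 changed there by -0.19 and 0.09 (adjusted p = 0.32 and 0.54). Of the alpha-cell genes, STE3 gave 6.65 to 7.19 and MF(ALPHA)1 gave 5.84 to 8.41. With AhPDF1.1b on control medium they changed by -0.06 (adjusted p = 0.72) and -0.75 (adjusted p = 0.0003). With zinc MF(ALPHA)1 was lower too, by -1.34 in AhPDF1.1b yeast and -2.46 in WT yeast. STE3 changed with zinc by 0.40 in AhPDF1.1b yeast and by -0.19 in WT yeast. The STE3 call in WT yeast was lost with slide as a block in limma (adjusted p = 0.19). The part of such shifts in the results was not tested. URA3, deleted in the strain and carried as the marker of pYX212, was high on all 8 arrays, with 14.16 to 14.55 in WTD20 and WTD0 yeast and 15.40 to 15.64 in WT20 and WT0 yeast, near the array maximum. It was lower in yeast with AhPDF1.1b by a log2 change of -1.12 under zinc and -1.12 on control medium, and its part in the results was not tested. The arrays lay on 2 slides. Slide 1 held both WTD20 arrays and slide 2 held both WT20 arrays, whereas WT0 and WTD0 had 1 array on each slide. A slide term passed at an adjusted p for 0 genes in limma, and for 104 genes at an unadjusted p under 0.05, of which GRX3 and MXR1 are members.

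Zinc changed the transcript levels of 27 of the 37 measured defence genes in WT yeast, with 27.8% of all genes raised and 31.5% lowered there. The effect of zinc differed between AhPDF1.1b yeast and WT yeast for 20 of the 37 genes. The difference was positive for 24.3% and negative for 29.7% of them, against 17.7% and 16.0% of all genes. The clearest case was a group of oxidoreductases and a glutathione transferase, OYE2, OYE3, FRM2 and GTT2. In AhPDF1.1b yeast GTT2 alone of them was higher with zinc (1.71 times), whereas in WT yeast all 4 were between 4.02 and 5.36 times higher. TRX1, GND1, CTT1 and HYR1 fell by at least 1 on the log2 scale with zinc in WT yeast, and none of them fell by that much in AhPDF1.1b yeast. On control medium 4 of the 37 genes passed for the defensin, and none of these 4 calls passed without WT0 replicate 1. Over all genes, 3.00% rose and 2.65% fell with the defensin on control medium. In whole colonies, a change in some of the cells and a smaller change in every cell cannot be told apart.

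**Figure D1:**
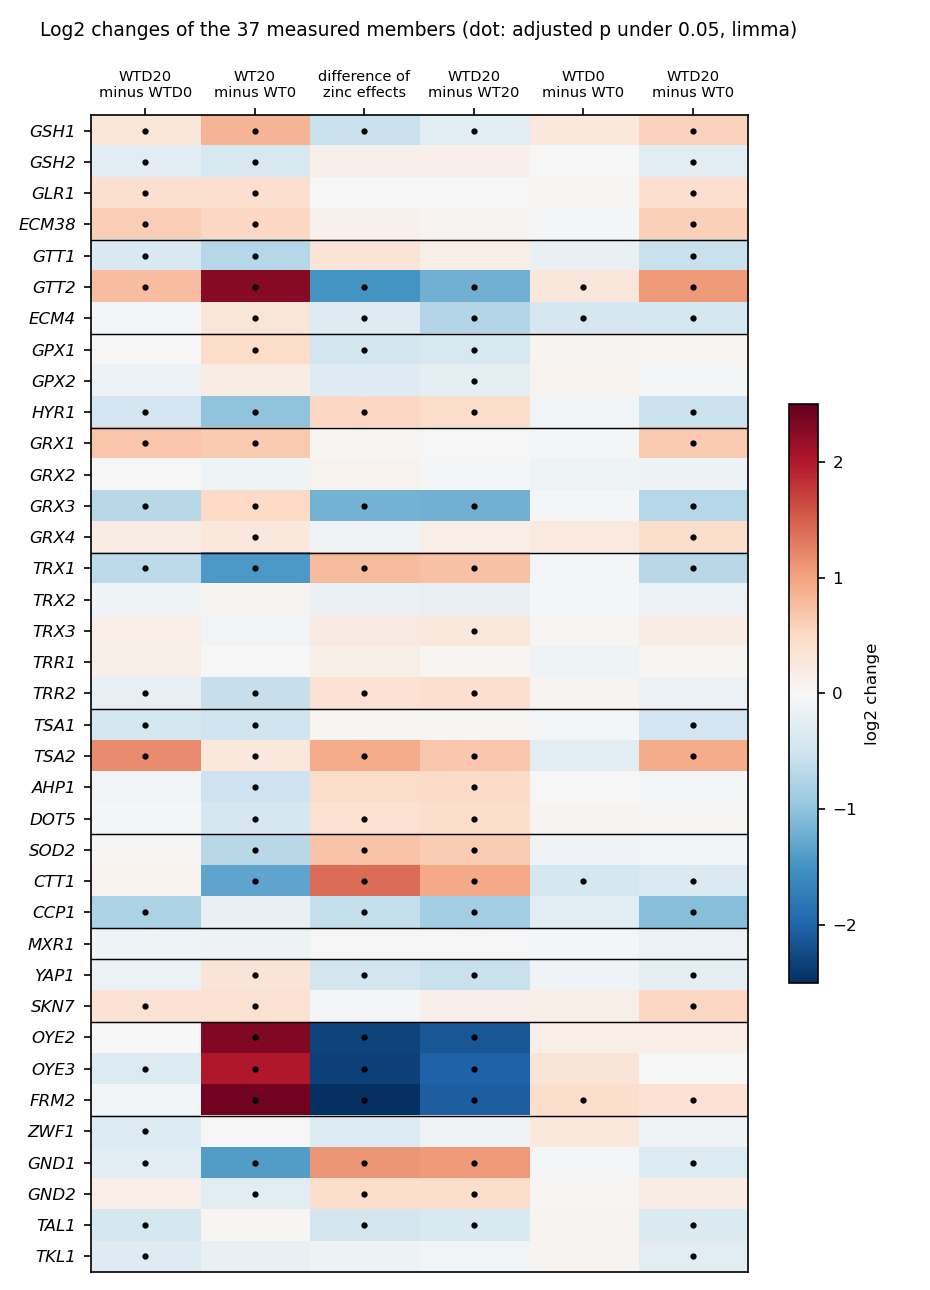
Log2 change of each of the 37 measured genes (rows, grouped by role with lines between groups) in 6 comparisons (columns), on a colour scale that runs from -2.5 (blue) to 2.5 (red). A dot marks an adjusted p under 0.05 in limma. The strongest reds are OYE2, OYE3, FRM2 and GTT2 in WT20 minus WT0, and the column WTD0 minus WT0 is nearly blank, with 4 dots.

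In AhPDF1.1b yeast, zinc raised 7 of the 37 genes and lowered 13 (WTD20 minus WTD0, adjusted p under 0.05 in limma). The shares, 18.9% and 35.1%, compare with 21.8% of all genes raised and 24.0% lowered. The changes of the members ran between -0.78 for CCP1 and 1.18 for TSA2, with a median size of 0.26 against 0.19 over all genes. TSA2 was the single member that moved by at least 1 on the log2 scale. The calls of 13 genes held under all alternatives except a minimum change of 1. Those of GSH1, GSH2, TRR2, SKN7, OYE3, ZWF1 and GND1 did not, as given with each gene.

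In WT yeast, zinc raised 15 of the 37 genes and lowered 12 (WT20 minus WT0), which is 40.5% and 32.4% of them, against the 27.8% and 31.5% of all genes. The share that fell was thus near that of all genes. The size of the changes stood out more than their number, since 8 members (21.6%) changed by at least 1 on the log2 scale, 4 up and 4 down, as did 7.34% of all genes. The median size was 0.42 for the members and 0.28 for all genes, while the signed medians were near 0 for both. The calls of 23 genes held under all alternatives except a minimum change of 1, and those of GRX4, TSA2, SKN7 and GND2 did not.

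The interaction (WTD20 minus WTD0, less WT20 minus WT0) says how far the response to zinc differed between AhPDF1.1b yeast and WT yeast. All WTD20 and all WT20 arrays lay on different slides, so a slide effect cannot be fully told apart from this difference. The interaction passed for 20 of the 37 genes. It was positive for 9 (24.3%) and negative for 11 (29.7%), against 17.7% positive and 16.0% negative among all genes. Of the 20 genes, GRX3 and OYE3 passed in both yeasts in opposite directions, and the OYE3 decrease in AhPDF1.1b yeast was lost without WTD20 replicate 2 (adjusted p = 0.089) or WTD0 replicate 1 (adjusted p = 0.071). For GSH1, GTT2, HYR1, TRX1, TRR2 and GND1 zinc passed in both yeasts in the same direction, with a smaller estimate in AhPDF1.1b yeast, and for TSA2 with a larger one. For the remaining 11 zinc passed in 1 of the yeasts, WT yeast for ECM4, GPX1, DOT5, SOD2, CTT1, YAP1, OYE2, FRM2 and GND2, and AhPDF1.1b yeast for CCP1 and TAL1. The interaction was at least 1 in size for 7 members (18.9%), 2 positive and 5 negative, and for 3.95% of all genes. Leaving out single arrays or fitting slide as a block ended the call of 9 of the 20 genes, namely GSH1, ECM4, GPX1, HYR1, TRR2, DOT5, YAP1, GND2 and TAL1.

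Under zinc, AhPDF1.1b raised 11 members and lowered 12 (WTD20 minus WT20), 29.7% and 32.4% of them, against 26.8% and 22.0% of all genes. The changes ran between -2.15 for OYE2 and 1.06 for GND1, and 6 members moved by at least 1, 1 up and 5 down. Both arrays of WTD20 and both of WT20 lay on slides of their own, so this difference has no within-slide value. With slide as a block, estimated here from the control groups, 18 of the 37 genes passed. The calls of GSH1, GPX2, TRX3, AHP1 and TAL1 did not hold under all alternatives.

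On control medium, AhPDF1.1b raised GTT2 and FRM2 and lowered CTT1 and ECM4 (WTD0 minus WT0), which is 5.41% of the members in each direction, against 3.00% and 2.65% of all genes. No member moved by 1 on the log2 scale, the median size was 0.073 for the members and 0.087 for all genes, and at an unadjusted p under 0.05 the count was 10. None of the 4 calls passed without WT0 replicate 1, where the count was 0 by limma and 6 at an unadjusted p under 0.05. With slide as a block CTT1 and ECM4 still passed, at adjusted p = 0.018 and 0.014, and GTT2 and FRM2 had adjusted p = 0.075 and 0.062.

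Zinc and AhPDF1.1b combined (WTD20 minus WT0) raised 9 members (24.3%) and lowered 13 (35.1%), against 24.6% and 27.1% of all genes. The largest changes were 1.07 for GTT2 (adjusted p = 9.2e-07) and -1.07 for CCP1 (adjusted p = 5.5e-06). OYE2 and OYE3 stood near their WT0 level, with log2 changes of 0.17 (adjusted p = 0.17) and -0.01 (adjusted p = 0.91). FRM2 was higher by 0.37 (adjusted p = 0.012), a call lost without WTD20 replicate 2 (adjusted p = 0.11) or WT0 replicate 2 (adjusted p = 0.067). The calls of GSH2, YAP1, GND1, TAL1 and TKL1 in the combination did not hold under all alternatives either.

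Of the 2 transcription factors among the members, YAP1 passed the interaction test and SKN7 rose with zinc in both yeasts. YAP1 (YML007W) is controlled mainly through oxidation and nuclear export of its protein, so its transcript is no measure of its activity. Its log2 signals were 10.77 and 10.64 in WTD20 yeast, 11.22 and 11.28 in WT20 yeast, 10.85 and 10.84 in WTD0 yeast, and 10.88 and 10.97 in WT0 yeast. The WT20 arrays were the highest and the WTD20 arrays the lowest, and WTD0 and WT0 lay between. The zinc effect on YAP1 was -0.14 in AhPDF1.1b yeast (SE 0.072, adjusted p = 0.14), and zinc raised it by 0.32 in WT yeast (SE 0.072, adjusted p = 0.0026). Under zinc YAP1 was lower with AhPDF1.1b by a log2 change of -0.55 (adjusted p = 0.00014). The interaction of -0.47 (adjusted p = 0.0056) was -0.41 with slide as a block (adjusted p = 0.056). SKN7 (YHR206W), which works with Yap1 on several peroxide-induced genes, rose with zinc by 0.36 in AhPDF1.1b yeast (adjusted p = 0.013) and by 0.38 in WT yeast (adjusted p = 0.007), with an interaction of -0.02 (SE 0.143, adjusted p = 0.93). Its call was lost without WTD20 replicate 2 or WTD0 replicate 2 in AhPDF1.1b yeast (adjusted p = 0.054 and 0.097) and without WT20 replicate 1 in WT yeast (adjusted p = 0.074).

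Among the 4 enzymes of glutathione synthesis and recycling, zinc raised GSH1, GLR1 and ECM38 and lowered GSH2 in both yeasts. GSH1 (YJL101C) encodes the rate-limiting gamma-glutamylcysteine synthetase, and its log2 signals were 11.51 and 11.27 in WTD20 yeast, 11.60 and 11.74 in WT20 yeast, 10.97 and 11.21 in WTD0 yeast, and 10.77 and 10.87 in WT0 yeast. The 4 groups did not overlap, with WT20 the highest and WT0 the lowest. Zinc raised GSH1 by 0.30 in AhPDF1.1b yeast (SE 0.106, adjusted p = 0.041) and by 0.85 in WT yeast (SE 0.106, adjusted p = 4.9e-05). The smaller of these increases was lost without WTD20 replicate 1 (adjusted p = 0.28), without WTD0 replicate 1 (adjusted p = 0.27) or with slide as a block (adjusted p = 0.13). The interaction was -0.55 (adjusted p = 0.016), and -0.62 with slide as a block (adjusted p = 0.046). It did not pass without WTD20 replicate 2, WTD0 replicate 2, WT20 replicate 2 or WT0 replicate 1, with adjusted p = 0.06, 0.057, 0.062 and 0.055 in this order.

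The second step of synthesis went the other way. GSH2 (YOL049W), glutathione synthetase, fell with zinc by 0.26 in AhPDF1.1b yeast (adjusted p = 0.017) and by 0.39 in WT yeast (adjusted p = 0.00099). The call in AhPDF1.1b yeast was lost without WTD20 replicate 1 (adjusted p = 0.083), without WTD0 replicate 1 (adjusted p = 0.11) or with slide as a block (adjusted p = 0.079). GLR1 (YPL091W), the NADPH-dependent glutathione reductase, had log2 signals of 10.22 and 10.02 in WTD20 yeast, 10.09 and 10.14 in WT20 yeast, 9.63 and 9.80 in WTD0 yeast, and 9.61 and 9.77 in WT0 yeast. All 4 arrays with zinc were above all 4 without it, and the zinc effects were 0.41 in AhPDF1.1b yeast and 0.42 in WT yeast (SE 0.092 for both, adjusted p = 0.0045 and 0.0023). ECM38 (YLR299W), the gamma-glutamyl transpeptidase that starts glutathione breakdown at the vacuole, had 10.43 and 10.25 in WTD20 yeast, 10.20 and 10.34 in WT20 yeast, 9.65 and 9.79 in WTD0 yeast, and 9.67 and 9.83 in WT0 yeast. It too separated the arrays by zinc alone, with increases of 0.62 in AhPDF1.1b yeast (adjusted p = 0.00038) and 0.51 in WT yeast (adjusted p = 0.00074). The intervals of plus and minus 2 SE around the interactions of GLR1 (-0.02, SE 0.13) and ECM38 (0.11, SE 0.133) include 0.

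The 3 glutathione transferases, which attach glutathione to foreign or damaged molecules, each followed a pattern of their own. GTT2 (YLL060C) had log2 signals of 10.85 and 10.93 in WTD20 yeast, 12.13 and 12.06 in WT20 yeast, 10.06 and 10.16 in WTD0 yeast, and 9.79 and 9.85 in WT0 yeast. No 2 groups overlapped, and WT20 was highest, followed by WTD20. Zinc made GTT2 1.71 times higher in AhPDF1.1b yeast (log2 change 0.78, SE 0.071, adjusted p = 1.2e-05) and 4.83 times higher in WT yeast (log2 change 2.27, adjusted p = 2.1e-09). Under zinc AhPDF1.1b lowered it to 0.434 times the WT20 level (adjusted p = 6.3e-07), whereas on control medium it was raised by 0.29 (adjusted p = 0.042), a call lost when any 1 of the 8 arrays was left out, at adjusted p between 0.055 and 0.28.

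ECM4 (YKR076W), an omega-class transferase, had 9.93 and 9.94 in WTD20 yeast, 10.71 and 10.64 in WT20 yeast, 10.001 and 9.91 in WTD0 yeast, and 10.40 and 10.35 in WT0 yeast. Yeast with AhPDF1.1b was lower in both media without overlap, by a log2 change of -0.74 under zinc (SE 0.067, adjusted p = 1.2e-05) and -0.42 on control medium (adjusted p = 0.0061, and 0.072 without WT0 replicate 1). The zinc effect on ECM4 was -0.02 in AhPDF1.1b yeast (adjusted p = 0.84) and 0.30 in WT yeast (adjusted p = 0.0029). The interaction of -0.32 (adjusted p = 0.026) was lost when WTD20 replicate 1 or 2, WTD0 replicate 1, WT20 replicate 1, or WT0 replicate 1 or 2 was left out, at adjusted p between 0.057 and 0.098, and with slide as a block (adjusted p = 0.13). GTT1 (YIR038C), a transferase of the endoplasmic reticulum, had 11.15 and 11.11 in WTD20 yeast, 11.12 and 10.85 in WT20 yeast, 11.50 and 11.52 in WTD0 yeast, and 11.73 and 11.65 in WT0 yeast. WTD20 and WT20 overlapped and lay below both control groups. Zinc lowered GTT1 by a log2 change of -0.38 in AhPDF1.1b yeast (adjusted p = 0.0046) and -0.70 in WT yeast (adjusted p = 4.7e-05), with an interaction of 0.32 that did not pass (SE 0.123, adjusted p = 0.067).

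**Figure D2:**
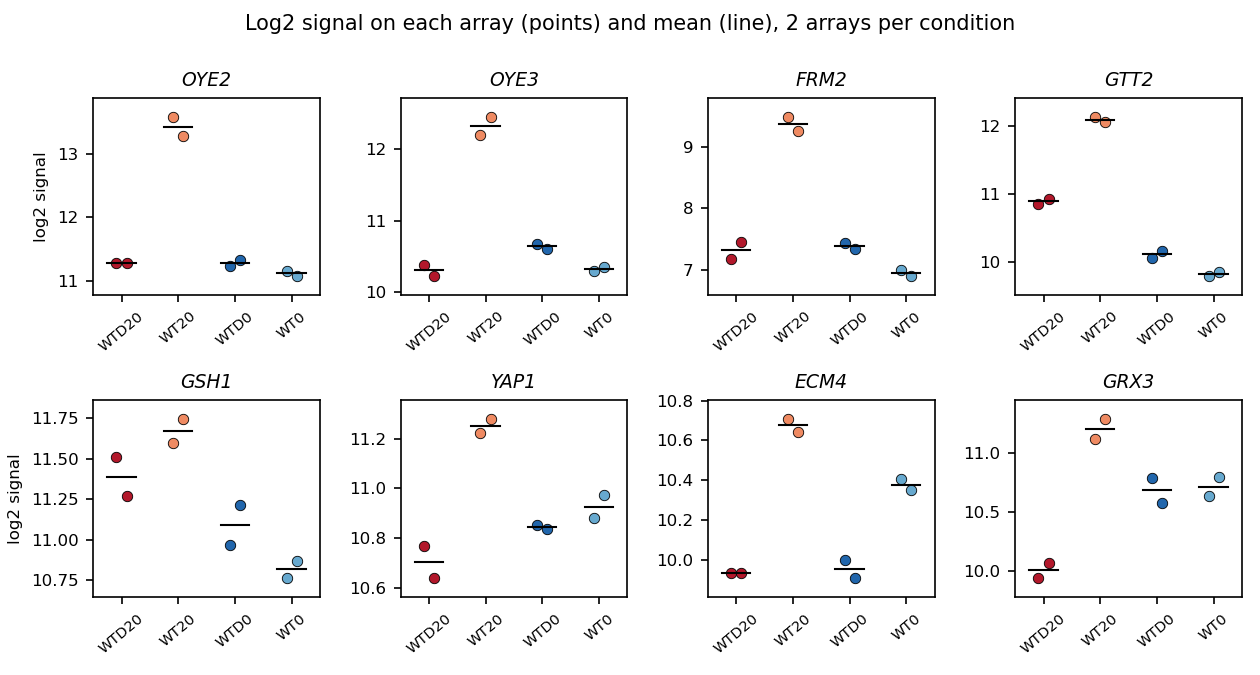
Log2 signal on each array (points) with the mean of the 2 arrays of a group (line) for 8 genes, in the order WTD20, WT20, WTD0, WT0, with an axis range of its own in each panel. The WT20 arrays are highest in all 8 panels, and for OYE2, OYE3 and FRM2 the WTD20 arrays sit near those of the control medium.

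Of the 3 glutathione peroxidases, HYR1 fell with zinc in both yeasts. HYR1 (YIR037W) reduces phospholipid and other hydroperoxides and is also the sensor that oxidises Yap1. Its log2 signals were 10.25 and 10.21 in WTD20 yeast, 9.80 and 9.75 in WT20 yeast, 10.61 and 10.82 in WTD0 yeast, and 10.77 and 10.78 in WT0 yeast. WT20 was lowest, WTD20 came next, and the control groups overlapped above them. The zinc effect was -0.48 in AhPDF1.1b yeast (SE 0.079, adjusted p = 0.0006) and -1.0004 in WT yeast (adjusted p = 1.7e-06). Their difference of 0.52 (adjusted p = 0.0052) had adjusted p = 0.061 with slide as a block. GPX1 (YKL026C), a peroxidase known for its induction by starvation, had a zinc effect of -0.01 in AhPDF1.1b yeast (adjusted p = 0.93) and rose by 0.45 in WT yeast (adjusted p = 0.0015). Its interaction of -0.46 (adjusted p = 0.02) was lost when WTD20 replicate 2, WTD0 replicate 2, WT20 replicate 1 or WT0 replicate 2 was left out, with adjusted p = 0.067, 0.063, 0.074 and 0.078. GPX2 (YBR244W) kept all 8 arrays between 8.26 and 8.62 and passed only for AhPDF1.1b under zinc (-0.23, adjusted p = 0.045), a call lost without WTD20 replicate 1 (adjusted p = 0.28), WTD0 replicate 1 or 2 (adjusted p = 0.055 each) or WT20 replicate 1 or 2 (adjusted p = 0.21 and 0.068).

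The 4 glutaredoxins are small proteins of the dithiol or the monothiol kind, which use glutathione to reduce disulphides or to bind iron-sulphur clusters. GRX1 (YCL035C), a dithiol enzyme, had log2 signals of 11.06 and 11.18 in WTD20 yeast, 11.23 and 11.01 in WT20 yeast, 10.35 and 10.50 in WTD0 yeast, and 10.52 and 10.43 in WT0 yeast. All 4 arrays with zinc exceeded all 4 without it, and WTD20 and WT20 overlapped. The zinc effects were 0.69 in AhPDF1.1b yeast (SE 0.092, adjusted p = 0.00015) and 0.65 in WT yeast (adjusted p = 0.00012). GRX2 (YDR513W), its paralogue, passed no comparison, and its 8 signals lay between 10.72 and 10.94.

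GRX3 (YDR098C), a monothiol glutaredoxin that takes part in sensing iron, had 9.94 and 10.06 in WTD20 yeast, 11.13 and 11.29 in WT20 yeast, 10.79 and 10.58 in WTD0 yeast, and 10.63 and 10.80 in WT0 yeast. WT20 was above both control groups and WTD20 below them, without overlap. Zinc lowered GRX3 by a log2 change of -0.68 in AhPDF1.1b yeast (SE 0.097, adjusted p = 0.00024) and raised it by 0.49 in WT yeast (adjusted p = 0.0012). Under zinc it stood at 0.433 times its WT20 level with AhPDF1.1b (adjusted p = 5.6e-06). The interaction was -1.18 (adjusted p = 0.00013). GRX3 was 1 of the 2 members with an unadjusted p under 0.05 for slide, and with slide as a block its interaction was -0.99 (adjusted p = 0.0017). GRX4 (YER174C), the closest paralogue of GRX3, had a zinc effect of 0.19 in AhPDF1.1b yeast (adjusted p = 0.16) and 0.27 in WT yeast (adjusted p = 0.042). The WT value was lost with slide as a block (adjusted p = 0.17) and when either WT20 or either WT0 array was left out, at adjusted p between 0.083 and 0.16. Array probes may bind transcripts of close paralogues, and for GRX3 and GRX4 and the other paired genes here this was not tested.

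The thioredoxin system was represented by TRX1 and TRX2 of the cytosol, TRX3 of mitochondria, and the reductases TRR1 and TRR2, of which zinc lowered TRX1 and TRR2. TRX1 (YLR043C) had log2 signals of 9.78 and 9.91 in WTD20 yeast, 9.13 and 9.08 in WT20 yeast, 10.44 and 10.54 in WTD0 yeast, and 10.58 and 10.50 in WT0 yeast. WT20 was lowest and WTD20 next, and WTD0 and WT0 overlapped. The zinc effect was -0.65 in AhPDF1.1b yeast (SE 0.074, adjusted p = 5.3e-05) and -1.43 in WT yeast (adjusted p = 7.4e-08), which is 0.638 and 0.37 times the level without zinc. The interaction was 0.78 (adjusted p = 0.00029), and 0.70 with slide as a block (adjusted p = 0.0057). TRX2 (YGR209C), a known Yap1 target, passed no comparison. Its signals ran between 13.02 and 13.56, both of these extremes in WTD20 yeast, and the SE of its zinc effects was 0.141, the largest among the members.

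TRR1 (YDR353W), the cytosolic reductase and another known Yap1 target, also passed no comparison, with all 8 signals between 10.56 and 10.74. TRR2 (YHR106W), the mitochondrial reductase, fell with zinc by 0.21 in AhPDF1.1b yeast (adjusted p = 0.027) and by 0.57 in WT yeast (adjusted p = 3.5e-05). The call in AhPDF1.1b yeast was lost without WTD20 replicate 1 or 2 (adjusted p = 0.096 and 0.087), without WTD0 replicate 1 (adjusted p = 0.12) or with slide as a block (adjusted p = 0.12). The interaction of TRR2 was 0.36 (adjusted p = 0.015, and 0.065 without WT0 replicate 2). TRX3 (YCR083W) passed only for AhPDF1.1b under zinc (0.27, adjusted p = 0.024), a call lost without WTD20 replicate 2 (adjusted p = 0.17), without WT20 replicate 1 or 2 (adjusted p = 0.083 and 0.084) or with slide as a block (adjusted p = 0.22).

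Peroxiredoxins use thioredoxin to reduce peroxides, and 4 of the 5 on the list were measured. TSA2 (YDR453C), a cytosolic peroxiredoxin known as the stress-induced paralogue of TSA1, was the member that zinc raised most in AhPDF1.1b yeast. Its log2 signals were 9.58 and 9.68 in WTD20 yeast, 9.003 and 8.92 in WT20 yeast, 8.58 and 8.32 in WTD0 yeast, and 8.76 and 8.65 in WT0 yeast. The groups did not overlap, and WTD20 was the highest. Zinc made TSA2 2.27 times higher in AhPDF1.1b yeast (log2 change 1.18, SE 0.092, adjusted p = 3.5e-06), against 1.19 times in WT yeast (log2 change 0.25, adjusted p = 0.033). The WT effect was lost without WT20 replicate 1 or 2 (adjusted p = 0.16 and 0.055), without WT0 replicate 2 (adjusted p = 0.18) or with slide as a block (adjusted p = 0.12). The interaction of 0.93 (adjusted p = 0.00041) was 1.0045 with slide as a block (adjusted p = 0.0029).

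TSA1 (YML028W), the main cytosolic peroxiredoxin, fell with zinc in both yeasts. Its log2 signals were 12.64 and 12.77 in WTD20 yeast, 12.77 and 12.60 in WT20 yeast, 13.18 and 13.13 in WTD0 yeast, and 13.23 and 13.13 in WT0 yeast. The zinc arrays were all below the control arrays, with effects of -0.45 in AhPDF1.1b yeast (adjusted p = 0.0013) and -0.50 in WT yeast (adjusted p = 0.00037), while the interaction stood at 0.05 (SE 0.116, adjusted p = 0.78). DOT5 (YIL010W), a nuclear thiol peroxidase, had a zinc effect of -0.04 in AhPDF1.1b yeast (adjusted p = 0.66) and fell by 0.42 in WT yeast (adjusted p = 0.00034). Its interaction of 0.38 (adjusted p = 0.013) was lost without WT0 replicate 1 (adjusted p = 0.065) and with slide as a block (adjusted p = 0.11). AHP1 (YLR109W), a thiol peroxidase with a preference for alkyl hydroperoxides, had a zinc effect of -0.06 in AhPDF1.1b yeast (adjusted p = 0.73) and fell by 0.52 in WT yeast (adjusted p = 0.0044). The 8 signals of AHP1, 14.90 to 15.67, were close to the highest signal of each array, which was at least 15.56, and whether this limited its changes was not tested. Its rise with AhPDF1.1b under zinc (0.47, adjusted p = 0.0098) was lost without WTD20 replicate 2 (adjusted p = 0.062), without WT20 replicate 2 (adjusted p = 0.069) or with slide as a block (adjusted p = 0.1).

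The enzymes that act on superoxide and hydrogen peroxide directly fell into contrasting patterns. CTT1 (YGR088W), the cytosolic catalase T, had log2 signals of 11.08 and 10.99 in WTD20 yeast, 10.16 and 9.998 in WT20 yeast, 10.95 and 10.95 in WTD0 yeast, and 11.44 and 11.35 in WT0 yeast. WT20 was lowest and WT0 highest, and both AhPDF1.1b groups lay between them without overlapping either. The zinc effect on CTT1 was 0.09 in AhPDF1.1b yeast (SE 0.077, adjusted p = 0.39), and zinc lowered it to 0.402 times the WT0 level in WT yeast (log2 change -1.31, adjusted p = 2e-07). With AhPDF1.1b it was 1.94 times higher under zinc (adjusted p = 5.7e-06) and lower on control medium (log2 change -0.45, adjusted p = 0.008, and 0.095 without WT0 replicate 1). SOD2 (YHR008C), the manganese superoxide dismutase of mitochondria, had 12.19 and 12.27 in WTD20 yeast, 11.67 and 11.55 in WT20 yeast, 12.20 and 12.20 in WTD0 yeast, and 12.32 and 12.26 in WT0 yeast. The WT20 arrays lay below the other 6 arrays. The zinc effect on SOD2 was 0.04 in AhPDF1.1b yeast (adjusted p = 0.72) and -0.69 in WT yeast (adjusted p = 1.2e-05), an interaction of 0.72 (adjusted p = 0.00037).

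CCP1 (YKR066C), the cytochrome c peroxidase of the mitochondrial intermembrane space, was lowest in the combination. Its log2 signals were 11.03 and 10.88 in WTD20 yeast, 11.72 and 11.94 in WT20 yeast, 11.68 and 11.80 in WTD0 yeast, and 11.98 and 12.07 in WT0 yeast. WTD20 lay below all other arrays, and WT20 overlapped WTD0. Zinc lowered CCP1 by a log2 change of -0.78 in AhPDF1.1b yeast (SE 0.092, adjusted p = 6.6e-05), and the change in WT yeast was -0.19 (adjusted p = 0.096). Under zinc it was 0.546 times the WT20 level with AhPDF1.1b (adjusted p = 3.1e-05), and the interaction was -0.59 (adjusted p = 0.0057). MXR1 (YER042W), which repairs oxidised methionine and also had an unadjusted p under 0.05 for slide, passed no comparison, with signals between 9.29 and 9.66.

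**Figure D3:**
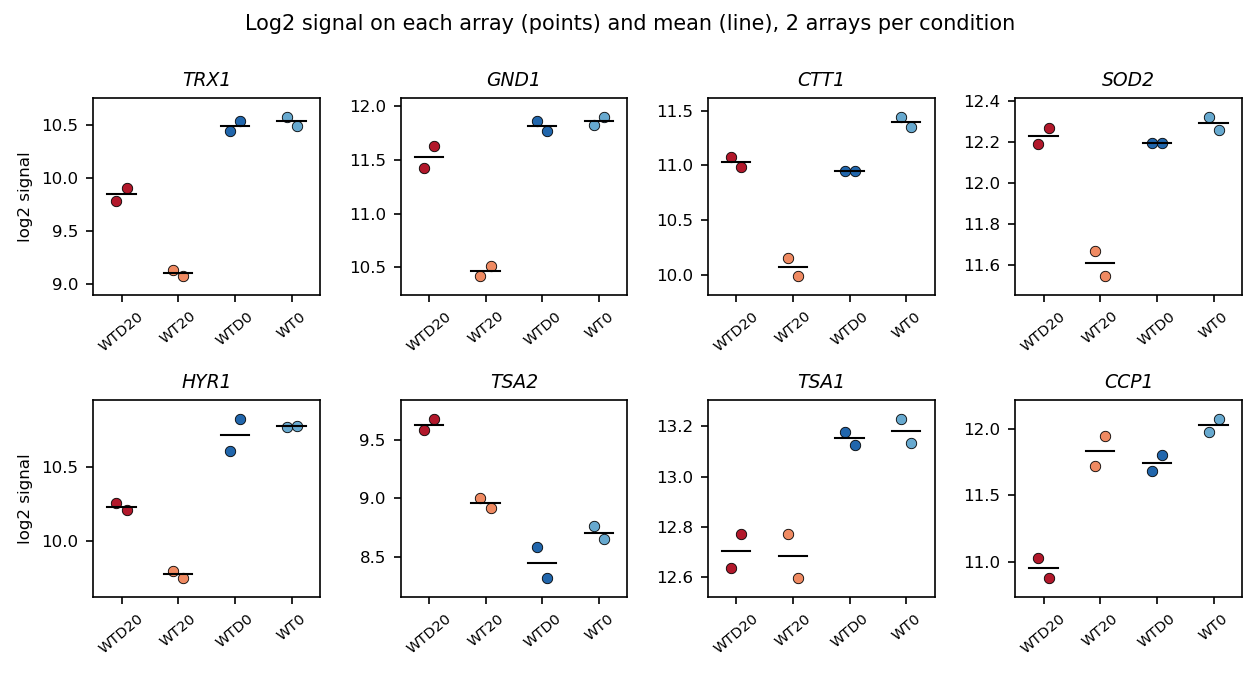
Log2 signal on each array (points) with the mean of the 2 arrays of a group (line) for 8 genes, in the order WTD20, WT20, WTD0, WT0, with an axis range of its own in each panel. WT20 is the lowest group for TRX1, GND1, CTT1, SOD2 and HYR1, whereas WTD20 is the highest group for TSA2 and the lowest for CCP1.

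Among the 37 genes, OYE2, OYE3 and FRM2 had the largest interactions and the largest changes with AhPDF1.1b under zinc. OYE2 and OYE3 are NADPH oxidoreductases of the old yellow enzyme family that reduce unsaturated carbonyl compounds, and FRM2 is a member of the nitroreductase family. OYE2 (YHR179W) had log2 signals of 11.28 and 11.28 in WTD20 yeast, 13.58 and 13.28 in WT20 yeast, 11.24 and 11.33 in WTD0 yeast, and 11.15 and 11.08 in WT0 yeast. The WT20 arrays were far above the other 6, and WTD20 lay within the range of WTD0. The zinc effect on OYE2 was -0.0012 in AhPDF1.1b yeast (SE 0.094, adjusted p = 0.99), and zinc made it 4.97 times higher in WT yeast (log2 change 2.31, adjusted p = 1.3e-08).

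OYE3 (YPL171C) had 10.38 and 10.23 in WTD20 yeast, 12.20 and 12.45 in WT20 yeast, 10.67 and 10.60 in WTD0 yeast, and 10.29 and 10.34 in WT0 yeast. Here WTD20 spanned the WT0 values and WTD0 lay slightly above both. Zinc changed OYE3 by -0.33 in AhPDF1.1b yeast (SE 0.091, adjusted p = 0.012), a decrease lost without WTD20 replicate 2 (adjusted p = 0.089) or WTD0 replicate 1 (adjusted p = 0.071), and made it 4.02 times higher in WT yeast (adjusted p = 3e-08). FRM2 (YCL026C-A) had 7.18 and 7.45 in WTD20 yeast, 9.48 and 9.26 in WT20 yeast, 7.43 and 7.33 in WTD0 yeast, and 6.99 and 6.91 in WT0 yeast. WTD20 overlapped WTD0, and WT0 lay below both. The zinc effect on FRM2 was -0.06 in AhPDF1.1b yeast (SE 0.103, adjusted p = 0.65) and 2.42 in WT yeast (adjusted p = 1.9e-08). That effect in WT yeast was the largest zinc effect among the 37 genes.

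Under zinc, AhPDF1.1b lowered these 3 transcripts. The ratios to the WT20 level were 0.226 for OYE2 (adjusted p = 6.5e-08), 0.246 for OYE3 (adjusted p = 8.4e-08) and 0.241 for FRM2 (adjusted p = 1.8e-07). The interactions were -2.31 (SE 0.133), -2.34 (SE 0.129) and -2.48 (SE 0.145), and with slide as a block they were -2.39, -2.28 and -2.48, with adjusted p up to 4.4e-05. Within slide 1, the zinc effects in AhPDF1.1b yeast were -0.05, -0.30 and -0.01. Within slide 2, those in WT yeast were 2.35, 1.98 and 2.46. On control medium FRM2 was higher with AhPDF1.1b by 0.43 (adjusted p = 0.036), a call lost without either WTD0 or either WT0 array, at adjusted p between 0.093 and 0.17. The changes were 0.17 for OYE2 and 0.32 for OYE3 there (adjusted p = 0.36 and 0.071).

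**Figure D4:**
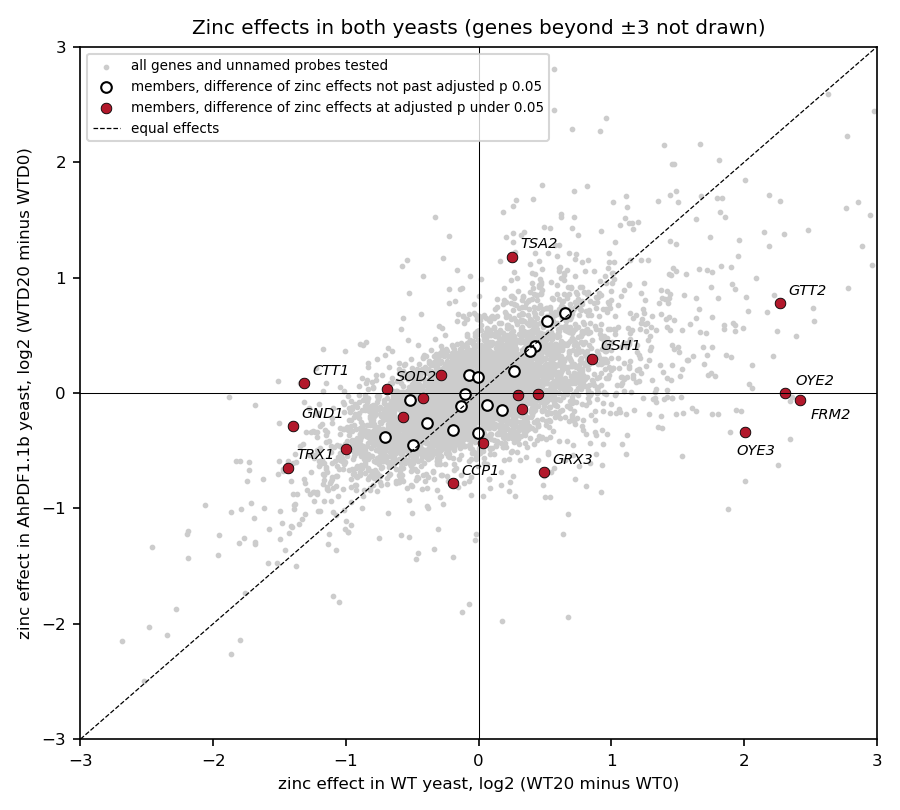
Zinc effect in AhPDF1.1b yeast (vertical axis, log2 of WTD20 minus WTD0) against the zinc effect in WT yeast (horizontal axis, log2 of WT20 minus WT0) for the 37 measured members and, in grey, all genes and unnamed probes tested within plus and minus 3. Filled red points are the 20 members whose zinc effects differed at an adjusted p under 0.05, and the dashed line marks equal effects. OYE2, OYE3 and FRM2 lie far right near or below 0 on the vertical axis, and CTT1 lies far left near 0.

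The pentose phosphate pathway was represented by 5 members, and zinc lowered ZWF1, GND1, TAL1 and TKL1 in AhPDF1.1b yeast and GND1 and GND2 in WT yeast. GND1 (YHR183W) encodes the main 6-phosphogluconate dehydrogenase, which makes NADPH. Its log2 signals were 11.42 and 11.63 in WTD20 yeast, 10.42 and 10.51 in WT20 yeast, 11.86 and 11.77 in WTD0 yeast, and 11.83 and 11.90 in WT0 yeast. WT20 was far below the rest, WTD20 was next, and the control groups overlapped. The zinc effect was -0.29 in AhPDF1.1b yeast (SE 0.084, adjusted p = 0.017) and -1.40 in WT yeast (adjusted p = 2.4e-07), where the level was 0.38 times that of WT0. The smaller effect was lost without WTD20 replicate 1 (adjusted p = 0.15), without WTD0 replicate 1 (adjusted p = 0.097) or with slide as a block (adjusted p = 0.073). Under zinc GND1 was 2.08 times higher with AhPDF1.1b (adjusted p = 5.2e-06), and the interaction was 1.11 (adjusted p = 7.2e-05).

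GND2 (YGR256W), the minor isozyme, had a zinc effect of 0.16 in AhPDF1.1b yeast (adjusted p = 0.1) and -0.28 in WT yeast (adjusted p = 0.0062, and 0.061 without WT20 replicate 2). Its interaction of 0.44 (adjusted p = 0.0078) had adjusted p = 0.069 with slide as a block. ZWF1 (YNL241C), glucose-6-phosphate dehydrogenase and the entry to the pathway, had a zinc effect of -0.35 in AhPDF1.1b yeast (adjusted p = 0.031), a call lost without WTD20 replicate 2 (adjusted p = 0.27), without WTD0 replicate 2 (adjusted p = 0.17) or with slide as a block (adjusted p = 0.064), and of -0.003 in WT yeast (adjusted p = 0.98). TAL1 (YLR354C), transaldolase, fell by 0.43 in AhPDF1.1b yeast (adjusted p = 0.0069) and had a zinc effect of 0.03 in WT yeast (adjusted p = 0.81). Its interaction of -0.46 (adjusted p = 0.035) had adjusted p = 0.28 with slide as a block, and was lost when any array but WTD0 replicate 2 was left out, at adjusted p between 0.058 and 0.1. TKL1 (YPR074C), transketolase, fell by 0.32 in AhPDF1.1b yeast (adjusted p = 0.0073) and had a change of -0.19 in WT yeast (adjusted p = 0.06).

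Of 12 other genes of the pathway or of NADPH supply, 10 were measured. Zinc raised 2 and lowered 2 of the 10 in AhPDF1.1b yeast, near the 21.8% and 24.0% of all genes, and raised 3 and lowered 5 in WT yeast, against 27.8% and 31.5% of all genes. Of the lowered genes in AhPDF1.1b yeast, SOL3 was lost without WTD20 replicate 1 (adjusted p = 0.17), without WTD0 replicate 1 (adjusted p = 0.19) or with slide as a block (adjusted p = 0.12). In WT yeast the lowered SOL4 was lost without WT20 replicate 2 (adjusted p = 0.11) or WT0 replicate 1 (adjusted p = 0.086). IDP2, a cytosolic isocitrate dehydrogenase that makes NADPH, rose by 0.72 in AhPDF1.1b yeast (adjusted p = 7.6e-06) and by 0.77 in WT yeast (adjusted p = 2e-06). ALD6, a cytosolic aldehyde dehydrogenase that also makes NADPH, had log2 signals of 13.11 and 13.23 in WTD20 yeast, 13.15 and 13.30 in WT20 yeast, 13.15 and 13.06 in WTD0 yeast, and 14.20 and 14.04 in WT0 yeast. The WT0 arrays alone stood high. AhPDF1.1b lowered ALD6 by 1.02 on control medium (adjusted p = 0.00021), and the zinc effect was 0.06 in AhPDF1.1b yeast (adjusted p = 0.58) and -0.90 in WT yeast (adjusted p = 6.9e-06).

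Further known targets of Yap1 were set beside the members, and 9 of the 14 listed were measured. Zinc raised 4 of the 9 in AhPDF1.1b yeast (44.4%, against 21.8% of all genes). In WT yeast it raised 6 (66.7%, against 27.8%) and lowered 1 (11.1%, against 31.5%). Of these 6, FLR1 (0.23, adjusted p = 0.029) did not pass with slide as a block (0.22, adjusted p = 0.08). Its rise in WT yeast was 0.16 or 0.29 without WT0 replicate 1 or 2, and 0.27 or 0.18 without WT20 replicate 1 or 2. Of the 4 calls in AhPDF1.1b yeast, those of FLR1, AAD4 and AAD6 were lost without WTD0 replicate 1 (adjusted p = 0.14, 0.14 and 0.056) and without WTD20 replicate 2 (adjusted p = 0.17, 0.059 and 0.067), which left that of GRE2. Their median change was 0.086 in AhPDF1.1b yeast and 0.46 in WT yeast, against medians of -0.014 and -0.026 over all genes. ATR1, a membrane exporter of drugs and boron, had log2 signals of 10.04 and 10.07 in WTD20 yeast, 11.54 and 11.64 in WT20 yeast, 9.93 and 10.02 in WTD0 yeast, and 9.56 and 9.55 in WT0 yeast. The WT20 arrays stood far above the other 6. For ATR1 the zinc effect was 0.08 in AhPDF1.1b yeast (SE 0.069, adjusted p = 0.4) and 2.04 in WT yeast (adjusted p = 3.4e-09), with an interaction of -1.96 (adjusted p = 4.5e-07).

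ZTA1, a quinone oxidoreductase, had zinc effects of 0.0007 in AhPDF1.1b yeast and 0.82 in WT yeast (adjusted p = 1 and 2.6e-06), and its interaction was -0.82 (adjusted p = 0.00014). GRE2, a methylglyoxal reductase, rose by 0.55 in AhPDF1.1b yeast (adjusted p = 0.001) and by 1.02 in WT yeast (adjusted p = 7.7e-06). Its interaction of -0.47 (adjusted p = 0.025) was lost when WTD20 replicate 2, WTD0 replicate 2, WT20 replicate 1 or WT0 replicate 2 was left out, at adjusted p between 0.07 and 0.083. ATR1, ZTA1 and GRE2 were the 3 of the 9 genes whose interaction passed, all negative (33.3%). Among all genes it was negative for 16.0% and positive for 17.7%. The known targets TRX2 and TRR1 among the members passed no comparison.

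**Figure D5:**
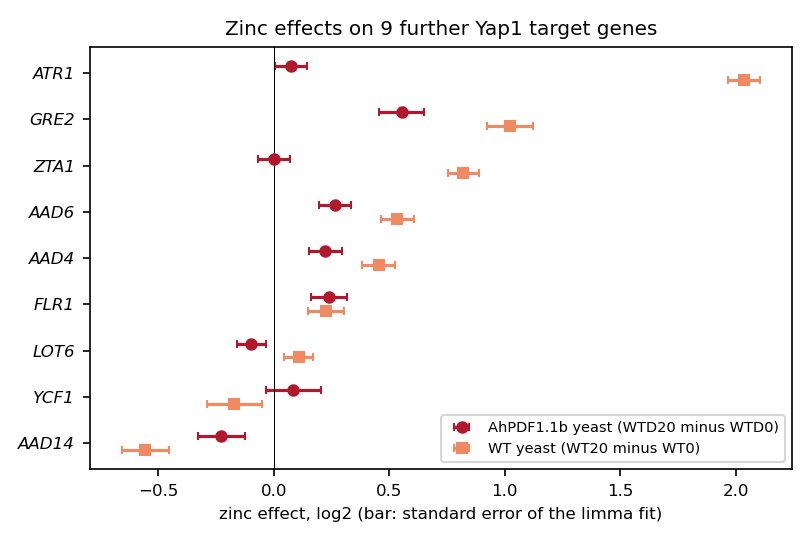
Zinc effect (horizontal axis, log2 change, with bars of 1 standard error of the limma fit) on 9 further known Yap1 targets in AhPDF1.1b yeast (WTD20 minus WTD0, circles) and in WT yeast (WT20 minus WT0, squares). ATR1 and ZTA1 lie near 0 in AhPDF1.1b yeast and at 2.04 and 0.82 in WT yeast.

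Of 16 other antioxidant enzymes and partners, 8 were measured. Zinc raised 2 of them in AhPDF1.1b yeast (25%, against 21.8% of all genes), and raised 4 (50%, against 27.8%) and lowered 2 (25%, against 31.5%) in WT yeast. The interaction was positive for 3 and negative for 3 (37.5% each, against 17.7% and 16.0% of all genes), with the calls of CTA1 and YHB1 lost with slide as a block (adjusted p = 0.095 and 0.072). CCS1, the chaperone that delivers copper to the superoxide dismutase Sod1, had log2 signals of 10.15 and 10.23 in WTD20 yeast, 11.98 and 11.81 in WT20 yeast, 10.38 and 10.26 in WTD0 yeast, and 10.29 and 10.28 in WT0 yeast. As with OYE2, the WT20 arrays alone were high, with a zinc effect of -0.13 in AhPDF1.1b yeast (adjusted p = 0.21) and 1.61 in WT yeast (adjusted p = 4.9e-08). SOD1 itself went the other way, by -0.05 in AhPDF1.1b yeast (adjusted p = 0.59) and -0.54 in WT yeast (adjusted p = 9.1e-05), with an interaction of 0.48 (adjusted p = 0.0047).

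CTA1, the peroxisomal catalase, rose with zinc by 0.70 in AhPDF1.1b yeast (adjusted p = 3.3e-05) and by 1.14 in WT yeast (adjusted p = 4.2e-07). YHB1, the flavohaemoglobin that removes nitric oxide, rose by 1.41 in AhPDF1.1b yeast (adjusted p = 3e-07) and by 0.93 in WT yeast (adjusted p = 3e-06). URE2, a nitrogen regulator with a fold like that of glutathione transferases, had a zinc effect of 0.09 in AhPDF1.1b yeast (adjusted p = 0.28) and rose by 0.64 in WT yeast (adjusted p = 1.2e-05). SRX1, which repairs overoxidised peroxiredoxins, was not analysed here.

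OPT1, the high-affinity importer of glutathione, and BPT1, a vacuolar transporter of glutathione conjugates, were the 2 measured of 8 genes of glutathione transport and turnover. OPT1 had log2 signals of 7.77 and 7.77 in WTD20 yeast, 8.73 and 8.73 in WT20 yeast, 7.20 and 7.19 in WTD0 yeast, and 7.27 and 7.35 in WT0 yeast. The WT20 arrays were highest, followed by WTD20. Zinc raised OPT1 by 0.57 in AhPDF1.1b yeast (adjusted p = 5.1e-05) and by 1.42 in WT yeast (adjusted p = 3e-08), and the interaction was -0.85 (adjusted p = 7.4e-05). BPT1 had a zinc effect of 0.16 in AhPDF1.1b yeast (adjusted p = 0.13) and of -0.23 in WT yeast (adjusted p = 0.032), a call lost when either WT20 or either WT0 array was left out, at adjusted p between 0.053 and 0.16, and with slide as a block (adjusted p = 0.12).

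Among 4 further regulators, the zinc effect on MSN2, a transcription factor of the general stress response, was 0.11 in AhPDF1.1b yeast (adjusted p = 0.4) and 1.31 in WT yeast (adjusted p = 1.4e-06). The interaction of MSN2 was -1.19 (adjusted p = 0.00014). CAD1, a factor related to Yap1, rose in both, by 0.46 in AhPDF1.1b yeast (adjusted p = 0.0018) and 0.69 in WT yeast (adjusted p = 6.1e-05). STB5, an activator of genes of NADPH supply, passed no comparison. MSN4, the partner of MSN2, rose with zinc in AhPDF1.1b yeast by 0.25 (adjusted p = 0.032), a call lost without WTD20 replicate 1 or 2 or without WTD0 replicate 2, at adjusted p between 0.088 and 0.2, and its change in WT yeast was -0.19 (adjusted p = 0.072).

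Over the 4 group means, WT20 was the highest group for 12 and the lowest for 13 of the 37 genes. WTD20 was highest for 8 and lowest for 12, and WT0 highest for 11 and lowest for 8. For WTD0 the counts were 6 and 4. The same counts were not made over all genes, so they do not set the members apart. The distance between the highest and the lowest group mean was largest for FRM2 (2.42 on the log2 scale) and smallest for GRX2 (0.12). All calls kept their sign in the differences taken within slides, 20 of 20 for zinc in AhPDF1.1b yeast, 27 of 27 for zinc in WT yeast, 22 of 22 for the combination, and 4 of 4 on each slide for AhPDF1.1b on control medium. These differences reuse arrays that gave the calls, so agreement of sign was largely fixed in advance and is no test of a slide effect. AhPDF1.1b under zinc has no such difference.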

How the data were processed

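Total RNA of 8 yeast samples was labelled with Cy3 and hybridised to one-colour Agilent arrays. The deposited values were log2 signals, 1 per probe and array, made by the authors from scanned arrays without pooling replicates. The submitters' notes name R 2.14.2 and limma for this step, with background correction and normalization not given in the sources used here. Quantiles differed little between arrays (medians 8.46 to 8.47), so the deposited values were not scaled again. The number of arrays limits the precision.

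Of 6227 probes, 4061 had 1 gene symbol in the array annotation, 0 had several and 2166 had none. RefSeq names of the R64 assembly updated 125 older symbols, and the 2 probes of FDH2 were averaged, which left 6226 genes. Coordinates and sequences were not used, so probes of close paralogues (OYE2 and OYE3, GRX1 and GRX2, GRX3 and GRX4, TRX1 and TRX2, TRR1 and TRR2, TSA1 and TSA2, GND1 and GND2) were not checked for shared binding. The transcript of AhPDF1.1b was not analysed here.

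The 4 group means were fitted to all 8 arrays with lmFit and eBayes of limma 3.58.1 in R 4.3.3 (4 residual and 6.36 prior degrees of freedom). In each of 6 comparisons the two-sided moderated p-values were adjusted over 6226 genes by Benjamini-Hochberg, with a threshold of 0.05. The steps were tested on simulated data. SE is the standard error of the fit. Signals of each array are given for the 5 members with the largest increase and the 5 with the largest decrease in each single-factor comparison and the 6 with the smallest p of the interaction, and for some genes chosen after their values were seen (YAP1, ALD6, ATR1, CCS1 and OPT1). From other lists, up to 4 genes with the smallest p were named, besides SOD1, SRX1 and CTA1. Members and lists were chosen with earlier results of these data known. Alternatives covered scaling (quantile, median centring), a filter on the dimmest 25% of genes, a block for slide or for replicate number, moderation with a trend and robust to outliers, weights for arrays, fits of the compared arrays alone, a minimum log2 change of 1, and omission of each array in turn.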

Additional observations from a re-analysis of the deposited data

Results flagged for a closer look

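For 20 of the 37 genes the effect of zinc differed between the yeasts by the interaction test of limma. Each value is a log2 difference, WTD20 minus WTD0, less WT20 minus WT0. Negative differences of at least 1 in size were -2.34 for OYE3 (adjusted p = 8.6e-07), -2.31 for OYE2 (adjusted p = 1.2e-06), -2.48 for FRM2 (adjusted p = 1.3e-06), -1.49 for GTT2 (adjusted p = 3.4e-06) and -1.18 for GRX3 (adjusted p = 0.00013). The other negative differences were -0.47 for YAP1 (adjusted p = 0.0056), -0.59 for CCP1 (adjusted p = 0.0057), -0.55 for GSH1 (adjusted p = 0.016), -0.46 for GPX1 (adjusted p = 0.02), -0.32 for ECM4 (adjusted p = 0.026) and -0.46 for TAL1 (adjusted p = 0.035). Among the positive differences, those of at least 0.7 were 1.40 for CTT1 (adjusted p = 8.3e-06), 1.11 for GND1 (adjusted p = 7.2e-05), 0.78 for TRX1 (adjusted p = 0.00029), 0.72 for SOD2 (adjusted p = 0.00037) and 0.93 for TSA2 (adjusted p = 0.00041). The remaining ones were 0.52 for HYR1 (adjusted p = 0.0052), 0.44 for GND2 (adjusted p = 0.0078), 0.38 for DOT5 (adjusted p = 0.013) and 0.36 for TRR2 (adjusted p = 0.015). Groups of 2 arrays allow no test for outlying samples.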

How the results depend on the processing

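The number of members that passed in limma was 20 for zinc in AhPDF1.1b yeast, 27 for zinc in WT yeast, 20 for the interaction, 23 for AhPDF1.1b under zinc, 4 for the defensin without added zinc, and 22 for the combination. Under quantile normalization, median centring, the filter on dim genes, an intensity trend, array weights or a fit of the arrays compared alone, the counts stayed within 1.5 times these values, the last setting not applying to the interaction, which uses all arrays. Quantiles already differed little between the deposited arrays, so quantile normalization and median centring could change little. With a log2 change of at least 1 required, the counts were 1, 8, 7, 6, 0 and 2 in the same order. With slide as a block they were 15, 25, 14, 18, 2 and 18. When 1 array was left out, they ran from 16 to 20, 24 to 28, 16 to 20, 19 to 22, 0 to 4 and 17 to 22. The count of 0 came without WT0 replicate 1, with 6 at an unadjusted p under 0.05 against 10 with all arrays. No call changed its sign under any of these settings. The calls of 13, 23, 11, 18, 0 and 16 genes held under all of them other than the minimum change.

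Deviations of arrays with the same replicate number correlated between -0.53 (WTD20 with WT0) and 0.54 (WT20 with WT0) across the 6 pairs of groups. These values cannot tell whether the numbers pair the samples, since replicates of WT0 and of WTD0 also differ in slide. A fit with the replicate as a block gave 20, 27, 20, 21, 2 and 22 calls. Why counts moved was not tested. With 4 residual degrees of freedom and all WTD20 and WT20 arrays on different slides, small changes in these groups are the least certain. The labels do not state whether replicates were grown on separate days.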

Other observations

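Genes linked to the general stress response of Msn2 and Msn4, which overlaps with oxidative defence, were also measured, all 12 of the list. Whether those factors drove the changes of these 12 genes was not tested. Zinc raised 6 (50%) and lowered 2 (16.7%) of them in AhPDF1.1b yeast, against 21.8% and 24.0% of all genes, and raised 5 (41.7%) and lowered 4 (33.3%) in WT yeast, against 27.8% and 31.5% of all genes. Of the lowered genes, GLK1 in AhPDF1.1b yeast was lost without WTD20 replicate 2 (adjusted p = 0.18), without WTD0 replicate 1 (adjusted p = 0.11) or with slide as a block (adjusted p = 0.081). In WT yeast DDR2 and TFS1 were both lost without WT20 replicate 2 (adjusted p = 0.15 and 0.19) or without WT0 replicate 1 (adjusted p = 0.14 and 0.053). Of the raised genes, TFS1 in AhPDF1.1b yeast was lost without WTD20 replicate 1 (adjusted p = 0.12) or WTD0 replicate 1 or 2 (adjusted p = 0.051 and 0.071). UBI4 in WT yeast was lost without WT20 replicate 2 (adjusted p = 0.28), with slide as a block (adjusted p = 0.18) and without either WT0 or either WTD20 array. SSA4, a cytosolic Hsp70 chaperone, rose by 1.67 in AhPDF1.1b yeast (adjusted p = 3.4e-08) and by 2.27 in WT yeast (adjusted p = 1.4e-09). HSP104, a chaperone that dissolves protein aggregates, rose by 0.78 in AhPDF1.1b yeast and by 0.87 in WT yeast (adjusted p = 8.6e-06 and 1.8e-06), and its interaction was -0.08 (SE 0.097, adjusted p = 0.54). ALD3, a cytosolic aldehyde dehydrogenase, rose by 1.71 in AhPDF1.1b yeast and by 1.11 in WT yeast (adjusted p = 1.8e-07 and 1.8e-06), while HSP12, a small membrane-stabilising protein, fell by 1.36 and 1.08 (adjusted p = 1.5e-06 and 4e-06). The interaction passed for 5 of the 12 genes, 4 positive (33.3%) and 1 negative (8.33%), against 17.7% and 16.0% of all genes. The negative one was SSA4 (-0.61, adjusted p = 0.00078).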
